A study of Mus musculus with 2 samples.

Results

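Integrins and cadherins are the main families of receptors through which a cell holds on to the matrix and to other cells. Their genes were measured in single fibro/adipogenic progenitors (FAPs), the Pdgfra-expressing mesenchymal cells of skeletal muscle. Members were taken by symbol, as Itga or Itgb followed by a number or by d, e, l, m, v or x, Itga2b, and Cdh followed by a number alone. This gave 49 of the 31053 genes in the count tables, 26 integrins and 23 cadherins. Of these, 29 had 20 or more UMIs (unique molecular identifiers, each standing for 1 captured transcript) over both libraries, 19 integrins and 10 cadherins. Values below are for those 29, and the other 20 are given by their UMIs.

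The cells were FAPs sorted as Lin-Vcam1-Sca1+ from limb muscles of 3-week-old C57BL/6 mice, where Lin stands for CD45 and CD31. Both genotypes carried the floxed allele of *Bap1*, which encodes a deubiquitinase of histone H2A and other proteins. The control, labelled WT, was *Bap1*f/f, and its littermate, labelled cKO and called ΔMPC here, was Prx1-Cre;*Bap1*f/f. Prx1-Cre acts in the mesenchyme of the embryonic limb bud, so all of its descendants in the limb, and not FAPs alone, are open to recombination. Each genotype was 1 library, and how many mice went into it is not given in the sources used here. No difference between the genotypes therefore has a replicate check, none was tested, and a difference between libraries and one between genotypes cannot be told apart.

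An integrin is a pair of 1 α and 1 β subunit. The α subunit largely sets the ligand, such as collagen, laminin or proteins with the RGD motif, and the β subunit links the pair through talin and kindlin to the actin cytoskeleton. Classical cadherins bind the same cadherin on the next cell in the presence of calcium and are tied to actin by catenins. In muscle connective tissue, integrins of the β1 group hold fibroblasts to collagen, fibronectin and laminin, and Cdh11 is the cadherin best known from mesenchymal cells.

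There were 4103 cells with 51015705 UMIs in the library labelled WT (median 12232 per cell) and 4378 cells with 49540066 UMIs in the library labelled ΔMPC (median 11017.5 per cell). The libraries shared 5 cell barcodes. *Bap1* itself did not serve as a check of the labels, because 3′ counts do not show whether the floxed exons were present, and its counts are not lower in the library labelled ΔMPC (1072 UMIs against 897). Directions are those of the libraries as labelled. A cell was called Dpp4-type when *Pi16*, *Sema3c*, *Anxa3* and *Efemp1* together gave 25 or more UMIs per 10000, and the rest are called other cells. No integrin or cadherin entered this rule. It marked 1050 cells (25.6%, exact binomial 95% interval 24.3% to 27.0%) in the library labelled WT and 1251 (28.6%, 27.2% to 29.9%) in the library labelled ΔMPC. Dpp4-type is a range of a score and not a type of cell, and 529 (12.9%) and 800 (18.3%) cells had scores of 15 to 40, near the limit. Levels are UMIs summed over the cells of a group and scaled to a total of 1000000 (CPM). *Dpp4* had 298 and 268 CPM in Dpp4-type and 56.5 and 39.5 CPM in other cells of the libraries labelled WT and ΔMPC. Medians over cells of *Col15a1*, a marker of the other cells, were 0 UMIs per 10000 in both Dpp4-type groups against 10.7 and 10.0 in other cells. Those of *Smoc2* were 0.73 and 0.60 against 8.44 and 1.87. Further markers of the other cells parted the groups less by their medians. *Cxcl14* had 0 in both Dpp4-type groups against 0 and 0.96, and *Sparcl1* had 0 in both against 2.65 and 0. *Hsd11b1* and *Crispld2* had medians of 0 in every group. *Lum* had medians of 7.97 and 5.08 in Dpp4-type and of 14.4 and 11.6 in other cells, so that marker was shared. *Ptprc*, *Adgre1*, *Cd3e*, *Pax7*, *Myf5*, *Myod1*, *Krt8* and *Krt18* had no UMI in either library.

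Promoter sequences of 17 of the 29 genes are in the RefSeq table used here (build GRCm38.p6, 250 bases before to 50 after the start). Those of the 5 members in it that differed by over 3-fold between libraries in other cells are shown on the strand of the gene, with each CpG in capitals. *Itgb7* was higher in both groups of cells of the library labelled ΔMPC and *Cdh6* in its other cells, and *Itga1*, *Itga8* and *Cdh26* were lower together in its other cells. They lie at chr15:102231886-102232185 (minus strand, *Itgb7*), chr15:13173626-13173925 (minus, *Cdh6*), chr13:115101915-115102214 (minus, *Itga1*), chr2:12301895-12302194 (minus, *Itga8*) and chr2:178430265-178430564 (plus, *Cdh26*).
Itgb7: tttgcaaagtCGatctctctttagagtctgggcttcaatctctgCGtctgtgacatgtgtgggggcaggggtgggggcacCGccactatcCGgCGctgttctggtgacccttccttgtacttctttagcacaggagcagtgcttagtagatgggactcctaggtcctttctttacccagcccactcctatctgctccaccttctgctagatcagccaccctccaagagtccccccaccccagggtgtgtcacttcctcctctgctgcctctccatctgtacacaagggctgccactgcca
Cdh6: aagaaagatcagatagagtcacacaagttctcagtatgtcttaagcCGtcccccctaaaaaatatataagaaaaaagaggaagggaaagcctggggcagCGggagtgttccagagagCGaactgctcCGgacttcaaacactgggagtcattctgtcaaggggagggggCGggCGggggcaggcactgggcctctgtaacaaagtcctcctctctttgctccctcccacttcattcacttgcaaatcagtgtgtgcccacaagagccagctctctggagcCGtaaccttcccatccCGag
Itga1: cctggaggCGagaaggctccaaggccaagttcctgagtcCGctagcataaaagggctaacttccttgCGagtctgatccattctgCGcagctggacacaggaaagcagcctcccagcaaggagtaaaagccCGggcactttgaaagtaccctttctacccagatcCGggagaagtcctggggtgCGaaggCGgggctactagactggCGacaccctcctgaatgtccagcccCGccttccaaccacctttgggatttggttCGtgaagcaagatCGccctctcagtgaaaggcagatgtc
Itga8: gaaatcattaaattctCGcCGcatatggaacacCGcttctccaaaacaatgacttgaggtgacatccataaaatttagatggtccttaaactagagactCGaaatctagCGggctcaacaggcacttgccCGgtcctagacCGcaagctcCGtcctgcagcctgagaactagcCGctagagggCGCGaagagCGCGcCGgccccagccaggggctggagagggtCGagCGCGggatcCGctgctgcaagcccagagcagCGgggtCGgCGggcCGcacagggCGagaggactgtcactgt
Cdh26: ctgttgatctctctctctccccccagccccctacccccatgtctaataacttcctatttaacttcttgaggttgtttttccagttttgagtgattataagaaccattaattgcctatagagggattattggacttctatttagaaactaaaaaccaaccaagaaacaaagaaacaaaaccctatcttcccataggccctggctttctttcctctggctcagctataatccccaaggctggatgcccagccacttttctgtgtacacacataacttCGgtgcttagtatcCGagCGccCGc

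The promoter of *Itgb7* held 5 CpGs and that of *Cdh26* held 4, below the median of 7 over 32851 RefSeq promoters of this length. *Cdh6* held 8, *Itga1* 12 and *Itga8* 23. The 3 promoters of the genes that were lower together thus spanned both sides of that median. *Cdh26*, on the lower side, had 34 and 2 UMIs in other cells, so its difference was implied by its entry. None of the 17 promoters held TATAAA on either strand, which 13.6% of all promoters did. GGGCGG, searched on both strands, was found in that of *Cdh6* alone of these 5 and in 35.7% of all promoters. These counts describe the letters in the windows only, since the data hold no measure of binding or methylation.

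**Figure D1:**
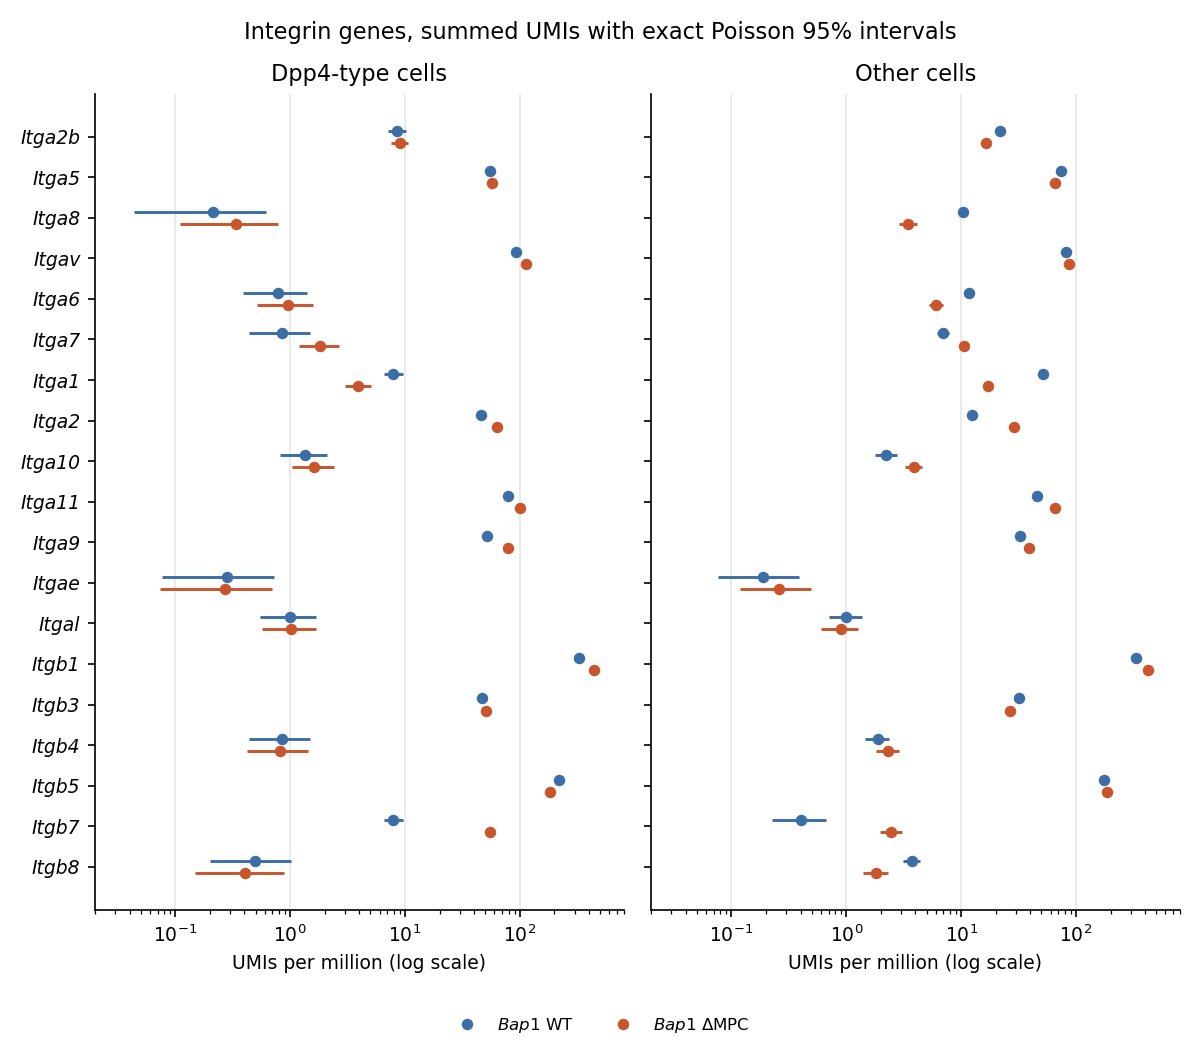
Levels of the 19 integrin genes with 20 or more UMIs, in CPM on a log axis, in Dpp4-type cells (left) and other cells (right). Points are the library labelled WT (blue) and the library labelled ΔMPC (orange), and bars are exact Poisson 95% intervals for counting error. *Itgb7* differs over 3-fold between the libraries in both panels, and *Itga1* and *Itga8* do in other cells. Further members, such as *Itgb1*, have intervals apart at smaller ratios, as has *Itga1* in Dpp4-type cells.

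Among the β subunits, *Itgb7* stood alone in differing over 3-fold between the libraries. Its product pairs with α4 or αE on leukocytes and is best known for homing to gut. The gene (ENSMUSG00000001281, chr15:102215995-102231944, minus strand, GRCm38) had 112 UMIs, or 7.93 CPM (exact Poisson 95% interval 6.53 to 9.55), in Dpp4-type cells of the library labelled WT and 808 UMIs, or 54.7 CPM (51.0 to 58.6), in those of the library labelled ΔMPC. In other cells it had 15 UMIs, or 0.41 CPM (0.23 to 0.67), and 86 UMIs, or 2.47 CPM (1.98 to 3.05). The log2 ratio of the library labelled ΔMPC over the library labelled WT was 2.79 (exact 95% interval 2.50 to 3.08) in Dpp4-type cells and 2.61 (1.80 to 3.50) in other cells. These intervals, like all others below, cover counting error only. Dpp4-type cells exceeded other cells by 19.5-fold (11.3 to 36.0) in the library labelled WT and by 22.1-fold (17.7 to 28.0) in the other library. At this score limit, the difference between cell groups was thus about as large in both libraries, and that between libraries in both cell groups. Of the *Itgb7* UMIs of other cells, 4 of 15 in the library labelled WT were at scores of 10 to 25, next to the limit. In the library labelled ΔMPC 47 of 86 were. The ratio in other cells therefore depends on where the limit is set.

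The α partners of β7 were nearly missing. *Itga4* had 10 UMIs and *Itgae* 24 UMIs over all 8481 cells, against 1021 of *Itgb7*. *Madcam1*, the gut ligand of α4β7, had 1 UMI in each library. In Dpp4-type cells *Itgb7* made up 1.31% of the UMIs of all 8 β subunit genes in the library labelled WT and 7.51% in the library labelled ΔMPC. It was found in 92 cells of the first and 333 of the second, and in at most 8 and 15 UMIs per cell. With every cell thinned to 5000 UMIs, 2.76% and 14.98% of Dpp4-type cells and 0.24% and 0.91% of other cells held an *Itgb7* UMI. The unthinned shares were 7.43% and 22.1% in Dpp4-type and 0.46% and 1.79% in other cells, whose median depths were 13635, 11661, 11829 and 10733 UMIs. No cell type known to lack the gene is in these libraries, so the share that free RNA would give was not measured.

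Markers of leukocytes were set beside *Itgb7*, since those are the cells it is known from. The summed level of 6 immune markers was 5.24 and 9.14 CPM in Dpp4-type and 6.83 and 15.01 CPM in other cells, with *Ptprc*, *Adgre1* and *Cd3e* at 0 in both libraries. A UMI of *Ptprc*, *Cd3e*, *Cd79a* or *Lyz2* was in 2 of the 92 *Itgb7* cells (2.17%) and 2.49% of the others in the library labelled WT, and in 17 of the 333 (5.11%) and 5.74% of the others in the library labelled ΔMPC. *Ptprc* and *Cd3e* could not be found in any cell, and CD45 cells and cells rich in other markers had been removed before deposit, so the shares rest on *Lyz2* and *Cd79a* in the cells that were left. The summed level of 4 epithelial markers other than *Cdh1* was 1.91 CPM in Dpp4-type cells of the library labelled WT, where the library labelled ΔMPC had 58.0 CPM, with *Krt8* and *Krt18* at 0. The sum thus came from the other 2 markers, *Epcam* and *Krt7*. Cells with a UMI of *Krt7* or *Plet1*, an epithelial keratin and a surface protein, were then set apart, 34 and 281 of the Dpp4-type cells. *Plet1* is not 1 of the 4 markers, and *Epcam* was not used to set cells apart. The part of the epithelial markers in the result was therefore not tested. *Itgb7* had 99.7 CPM in these cells of the library labelled ΔMPC and 41.5 CPM in the remaining Dpp4-type cells. Without them the log2 ratio between libraries was 2.38 (2.07 to 2.69), from 7.99 and 41.5 CPM. In the library labelled WT the 34 such cells were not above the rest, as all Dpp4-type cells together had 7.93 CPM.

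*Itgb1*, the partner of most α subunits in connective tissue, had 329 CPM (319 to 338) and 439 CPM (429 to 450) in Dpp4-type cells and 336 CPM (330 to 342) and 427 CPM (421 to 434) in other cells of the libraries labelled WT and ΔMPC. Its log2 ratios of 0.42 and 0.35 were above those of the median gene, which were 0.07 in Dpp4-type and 0.11 in other cells on the CPM scale. *Itgb5*, a partner of αv that binds vitronectin, had 221 and 182 CPM in Dpp4-type and 176 and 185 CPM in other cells. *Itgb3*, the other vitronectin receptor subunit, had 46.6 and 50.3 CPM in Dpp4-type and 31.7 and 26.7 CPM in other cells. Between the libraries, *Itgb3* differed by less than 1.5-fold in either group. *Itgb1* made up 54.3% and 60.3% of β subunit UMIs in Dpp4-type and 61.0% and 66.1% in other cells, and *Itgb5* 36.4%, 25%, 32.1% and 28.7% in the same order.

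*Itgb8*, whose αv pair binds latent TGF-β, was a gene of other cells. It had 0.50 and 0.41 CPM in Dpp4-type cells (7 and 6 UMIs) and 3.74 and 1.81 CPM in other cells, so Dpp4-type cells were lower by log2 ratios of -2.91 (-4.26 to -1.83) and -2.16 (-3.66 to -0.95). Between libraries its log2 ratio in other cells was -1.05 (-1.50 to -0.61), short of 3-fold. *Itgb4*, the partner of α6 in hemidesmosomes, had 0.85 and 0.81 CPM in Dpp4-type and 1.87 and 2.30 CPM in other cells. *Itgb2*, the leukocyte β subunit, had 18 UMIs in all and *Itgb6* had 16.

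Of the collagen-binding α subunits, *Itga1* and *Itga2* differed in opposite directions, both between the cell groups and between the libraries. *Itga1* (ENSMUSG00000042284, chr13:114953096-115101964, minus strand), whose pair with β1 prefers basement membrane collagen, had 7.93 CPM (112 UMIs) and 3.93 CPM (58 UMIs) in Dpp4-type cells and 51.5 CPM (1899 UMIs) and 17.0 CPM (591 UMIs) in other cells of the libraries labelled WT and ΔMPC. Other cells were thus the higher group in each library and the library labelled WT the higher in each group. The log2 ratio between libraries was -1.60 (-1.73 to -1.46) in other cells, just past 3-fold, and -1.01 (-1.50 to -0.54) in Dpp4-type cells. Dpp4-type over other cells gave -2.70 (-2.99 to -2.42) and -2.11 (-2.53 to -1.72). *Pelo* lies inside *Itga1* on the same strand and had 29 and 20 UMIs in the libraries, so reads of that gene were few. *Gm49395* also overlaps *Itga1* on that strand, and its counts were not examined.

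*Itga2*, whose pair with β1 prefers fibrillar collagen, had the reverse pattern, with 46.2 and 62.8 CPM in Dpp4-type cells and 12.5 and 28.7 CPM in other cells. It was 3.70-fold (3.28 to 4.17) higher in Dpp4-type cells of the library labelled WT and 2.19-fold (2.00 to 2.39) in those of the library labelled ΔMPC. Between libraries its log2 ratio was 0.44 (0.30 to 0.59) in Dpp4-type and 1.20 (1.04 to 1.36) in other cells. *Itga11*, the fibroblast receptor for fibrillar collagen, had 79.0 and 99.5 CPM in Dpp4-type and 45.5 and 65.8 CPM in other cells. *Itga10*, known from cartilage, had 1.35 and 1.63 CPM in Dpp4-type and 2.22 and 3.88 CPM in other cells. Summed over these 4 genes, the collagen-binding group had 134 and 168 CPM in Dpp4-type and 112 and 115 CPM in other cells. The sums of other cells were thus close in both libraries, while the share of *Itga1* in all α subunit UMIs there was 14.6% and 4.91%, and that of *Itga2* was 3.55% and 8.31%.

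The laminin-binding α subunits were low in Dpp4-type cells, with summed levels of 1.63 and 2.78 CPM against 18.9 and 16.7 CPM in other cells. *Itga6*, the partner of β1 and β4 at basement membranes, had 11 and 14 UMIs (0.78 and 0.95 CPM) in Dpp4-type cells and 433 and 209 UMIs (11.7 and 6.01 CPM) in other cells. *Itga7*, the muscle laminin receptor, had 12 and 27 UMIs (0.85 and 1.83 CPM) and 257 and 368 UMIs (6.96 and 10.6 CPM). In other cells the library labelled ΔMPC was therefore the lower for *Itga6*, with a log2 ratio of -0.97 (-1.21 to -0.72), and the higher for *Itga7*, with 0.60 (0.37 to 0.84). Neither reached 3-fold between libraries, but both passed it between cell groups, with Dpp4-type over other log2 ratios of -3.91 and -2.66 for *Itga6* and of -3.03 and -2.53 for *Itga7*. Mural cells also express *Itga7*. Their 4 other markers summed to 64.1 and 52.9 CPM in other cells and 29.4 and 16.3 CPM in Dpp4-type cells. At least 1 of them was found in 45.9% and 38.1% of cells with *Itga7* against 37.4% and 27.9% of cells without, and their part in the result was not tested. *Itga3*, the third gene of the group, had 11 UMIs in all.

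Of the RGD-binding α subunits, *Itga8* differed over 3-fold. Its product pairs with β1 and binds nephronectin and fibronectin. The gene (ENSMUSG00000026768, chr2:12106632-12301922, minus strand) had 385 UMIs, or 10.4 CPM (9.42 to 11.5), and 120 UMIs, or 3.45 CPM (2.86 to 4.13), in other cells of the libraries labelled WT and ΔMPC, and 3 and 5 UMIs in Dpp4-type cells. The log2 ratio between libraries in other cells was -1.60 (-1.90 to -1.30), close to the limit of 3-fold. Dpp4-type over other cells gave -5.62 (-7.90 to -4.06), resting on 3 UMIs, and -3.35 (-4.998 to -2.09). *Itgav*, the α subunit shared by β3, β5, β6 and β8, had 92.7 and 114 CPM in Dpp4-type and 81.6 and 87.4 CPM in other cells. *Itga5*, the fibronectin receptor subunit, had 55.2 and 57.2 CPM in Dpp4-type and 73.6 and 65.9 CPM in other cells. Both genes differed by less than 1.5-fold between libraries.

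*Itga2b*, which encodes the platelet fibrinogen receptor subunit, was counted at 8.50 and 9.01 CPM in Dpp4-type and 21.9 and 16.5 CPM in other cells. Genes of platelets (*Pf4*, *Ppbp*, *Gp1ba* and *Gp9*, a list chosen after the values were seen) were in 1.93% and 1.97% of cells with *Itga2b* and in 2.16% and 3.42% of cells without. *Itga9*, a receptor subunit for tenascin and VCAM1, had 51.6 and 79.0 CPM in Dpp4-type and 32.4 and 39.3 CPM in other cells. The leukocyte subunit *Itgal* had 97 UMIs in all, at 0.89 to 1.02 CPM in the 4 sums, while *Itgad*, *Itgam* and *Itgax* had none. Summed over the family, integrins had 951 and 1159 CPM in Dpp4-type and 902 and 992 CPM in other cells of the libraries labelled WT and ΔMPC.

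**Figure D2:**
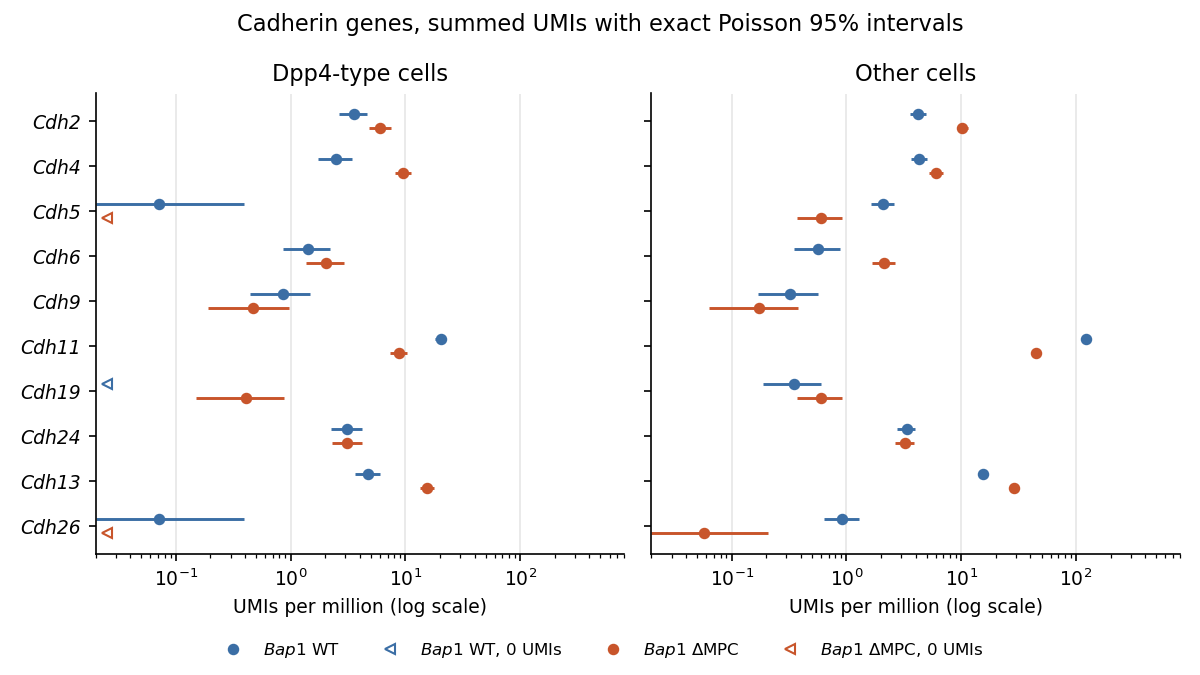
Levels of the 10 cadherin genes with 20 or more UMIs, in CPM on a log axis, in Dpp4-type cells (left) and other cells (right). Points are the library labelled WT (blue) and the library labelled ΔMPC (orange), bars are exact Poisson 95% intervals, and open triangles mark a count of 0. *Cdh11* is the member with the most UMIs and lies lower in the library labelled ΔMPC in both panels, and *Cdh13*, *Cdh2* and *Cdh4* lie higher.

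Cadherins summed to 37.1 and 46.3 CPM in Dpp4-type and 153 and 97.9 CPM in other cells, and their makeup differed between the libraries. *Cdh11* (ENSMUSG00000031673, chr8:102632095-102785642, minus strand), the mesenchymal type II cadherin, had 286 UMIs, or 20.3 CPM (18.0 to 22.8), and 129 UMIs, or 8.74 CPM (7.29 to 10.4), in Dpp4-type cells. In other cells it had 4471 UMIs, or 121 CPM (118 to 125), and 1559 UMIs, or 44.8 CPM (42.6 to 47.1). The log2 ratio between libraries was -1.21 (-1.53 to -0.91) in Dpp4-type and -1.43 (-1.52 to -1.35) in other cells, short of 3-fold in both. Between cell groups, Dpp4-type cells were lower by -2.58 (-2.76 to -2.41) and -2.36 (-2.63 to -2.10). *Cdh11* made up 79.0% of cadherin UMIs in other cells of the library labelled WT and 45.8% in those of the library labelled ΔMPC.

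*Cdh13*, a cadherin without a transmembrane part that binds adiponectin, differed in the other direction. It had 66 UMIs, or 4.68 CPM (3.62 to 5.95), and 228 UMIs, or 15.4 CPM (13.5 to 17.6), in Dpp4-type cells and 15.4 CPM (14.2 to 16.7) and 28.9 CPM (27.1 to 30.7) in other cells. Of the 66 UMIs, 25 were in 1 cell and 53 in cells with scores of 25 to 50, next to the limit, while the most in 1 Dpp4-type cell of the library labelled ΔMPC was 22. The log2 ratio between libraries was 1.72 (1.32 to 2.14) in Dpp4-type cells, past 3-fold, and 0.90 (0.76 to 1.06) in other cells. In Dpp4-type cells it was 2.66 with a score limit of 40 and 1.47 with a limit of 15, and it was 1.56 as a mean over cells and 1.49 without cells holding *Krt7* or *Plet1*, short of 3-fold in the last 3. Its Dpp4-type over other log2 ratio was -1.72 (-2.11 to -1.35) in the library labelled WT and -0.90 (-1.12 to -0.69) in the library labelled ΔMPC. In the latter, the Dpp4-type level of *Cdh13* equalled the level of other cells of the former.

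The type I cadherins summed to 6.23 and 15.6 CPM in Dpp4-type and 8.73 and 16.4 CPM in other cells. *Cdh4*, the retinal cadherin, had 35 UMIs, or 2.48 CPM (1.73 to 3.45), and 141 UMIs, or 9.55 CPM (8.04 to 11.3), in Dpp4-type cells, a log2 ratio of 1.95 (1.40 to 2.52). In other cells it had 4.31 and 6.07 CPM, a log2 ratio of 0.49 (0.19 to 0.80). *Cdh2*, the neural cadherin also found in mesenchyme and muscle, had 3.54 and 6.03 CPM in Dpp4-type and 4.17 and 10.2 CPM in other cells, with log2 ratios of 0.77 (0.25 to 1.30) and 1.29 (1.02 to 1.58). *Cdh1*, the epithelial cadherin, had no UMI in either library, and *Cdh3* and *Cdh15*, the muscle stem cell cadherin, had 6 and 12.

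Of the other type II cadherins, *Cdh6* had 20 and 30 UMIs (1.42 and 2.03 CPM) in Dpp4-type cells and 21 and 74 UMIs (0.57 and 2.13 CPM) in other cells, where its log2 ratio between libraries was 1.90 (1.19 to 2.68). *Cdh24* had between 3.12 and 3.33 CPM in the 4 sums, with a log2 ratio between libraries of -0.00 (-0.63 to 0.63) in Dpp4-type and -0.05 (-0.43 to 0.33) in other cells. The endothelial cadherin *Cdh5* had 1 and 0 UMIs in Dpp4-type cells and 77 and 21 UMIs (2.09 and 0.60 CPM) in other cells, a log2 ratio of -1.79 (-2.56 to -1.08) between libraries. CD31 cells were gated out of the sort, and 5 other endothelial markers summed to 14.2 and 11.5 CPM in other cells, none of them at 0 in both libraries. Of the 67 cells with *Cdh5* in the library labelled WT, 4 (5.97%) held 1 of these markers, against 9.09% of the other cells, and 0 of 16 (0.00%) did against 6.99% in the library labelled ΔMPC. *Kdr*, one of the markers, also belongs to a set of FAPs taken by *Lgr5*, *Pappa2* and *Kdr*, and cells rich in endothelial markers had been removed by the authors, so the shares do not tell where the *Cdh5* UMIs came from.

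*Cdh26* had 1 UMI in Dpp4-type and 34 UMIs (0.92 CPM) in other cells of the library labelled WT, and 0 and 2 UMIs (0.06 CPM) in the library labelled ΔMPC. Its log2 ratio in other cells was -4.002 with a wide counting interval of -7.10 to -2.04. *Cdh26* passed the minimum of 20 UMIs through the other cells of the library labelled WT alone, so a difference was implied by its entry. *Cdh9* (24 and 13 UMIs) and the Schwann cell cadherin *Cdh19* (13 and 27 UMIs) were close to the minimum. Nearest to it were *Itgae* with 24 UMIs on the inside and *Itgb2* and *Cdh23* with 18 on the outside. The remaining cadherins had 10 or fewer UMIs, with *Cdh17* at 10, *Cdh8* and *Cdh22* at 7, *Cdh10* and *Cdh20* at 5, *Cdh18* at 3, *Cdh7* and *Cdh16* at 1 and *Cdh12* at 0.

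Counted over the family, 3 of 22 eligible members differed over 3-fold between libraries in Dpp4-type cells, *Itgb7*, *Cdh4* and *Cdh13*, all higher in the library labelled ΔMPC. With a score limit of 15 in place of 25, *Itgb7* was the 1 member past 3-fold, and *Cdh13* lost its call as a mean over cells and without cells holding *Krt7* or *Plet1*. Among all 12517 genes, 1.89% were higher and 1.63% lower by this size. In other cells 6 of 27 members did, *Itgb7* and *Cdh6* higher and *Itga1*, *Itga8*, *Cdh5* and *Cdh26* lower, where 3.68% of 14271 genes were higher and 2.18% lower. Over all cells of a library, *Itgb7* was higher and *Itga1*, *Itga8*, *Cdh5* and *Cdh26* were lower of 29 members, beside 3.15% higher and 2.12% lower of 14729 genes. The counts in other cells and over all cells include *Cdh26*, whose difference was implied by its entry. In other cells *Itgb7* also passed the minimum through 1 library alone, with 15 UMIs in the library labelled WT and 86 in that labelled ΔMPC. The median size of the log2 ratio was 0.38 for members and 0.25 for all genes in Dpp4-type cells, and 0.78 and 0.27 in other cells. For cadherins alone it was 0.99 and 1.29, and for integrins alone 0.29 and 0.47. Within 1.5-fold were 14 of the 22 members in Dpp4-type and 12 of the 27 in other cells.

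**Figure D3:**
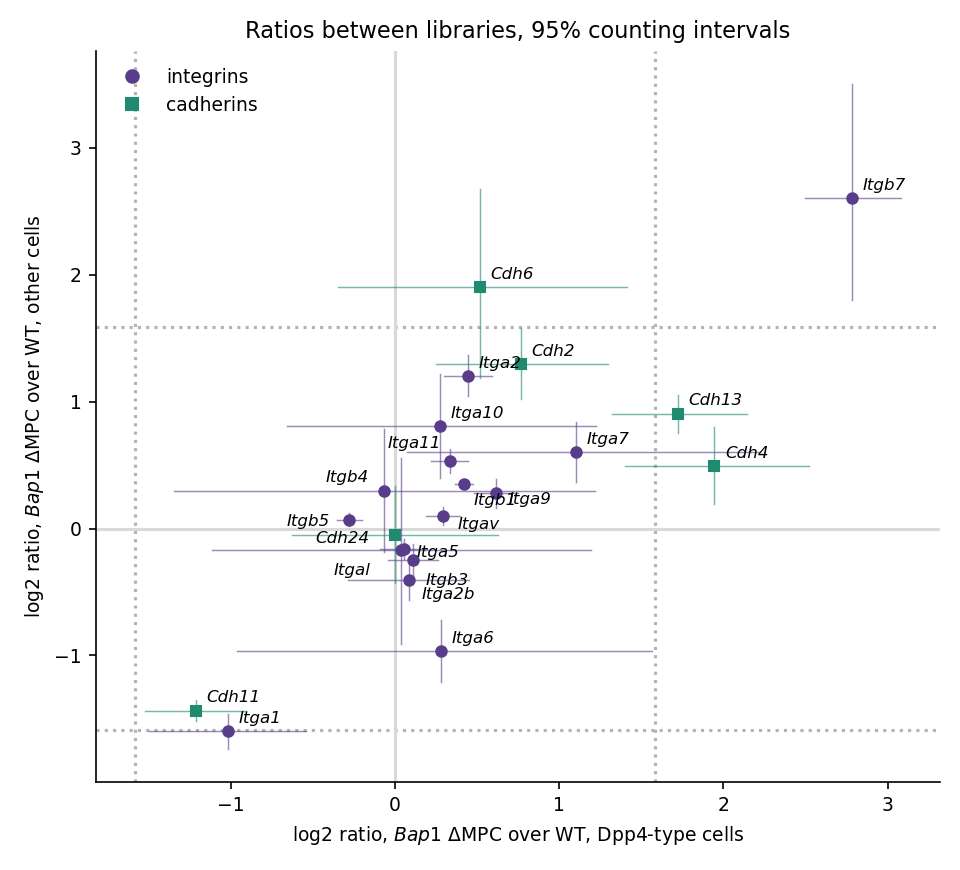
Log2 ratio of the library labelled ΔMPC over the library labelled WT in Dpp4-type cells (x axis) and in other cells (y axis) for the 22 members eligible in both, with 95% counting intervals as bars and dotted lines at 3-fold. *Itgb7* is past 3-fold on both axes, while *Cdh4* and *Cdh13* are past it on the x axis and *Cdh6* and *Itga1* on the y axis.

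Between the cell groups, 11 of 27 members differed over 3-fold in the library labelled WT and 7 of 26 in the library labelled ΔMPC. In the first, *Itga2* and *Itgb7* were higher in Dpp4-type cells (3.01% of 13582 genes were) and *Itga1*, *Itga6*, *Itga7*, *Itga8*, *Itgb8*, *Cdh5*, *Cdh11*, *Cdh13* and *Cdh26* lower (7.06%). In the second, *Itgb7* was higher (2.19% of 13680 genes) and *Itga1*, *Itga6*, *Itga7*, *Itga8*, *Itgb8* and *Cdh11* lower (7.49%). The median size of the log2 ratio was 1.32 and 0.91 for members, beside 0.26 and 0.27 for all genes. These comparisons share cells with those between libraries. Many of these calls rest on members with under 20 UMIs in the lower group, which passed the minimum through the higher group alone. In the library labelled WT these were *Itga6*, *Itga7*, *Itga8*, *Itgb8*, *Cdh5* and *Cdh26*, which entered through the other cells, *Cdh26* with 34 of its 35 UMIs. *Itgb7* entered there through Dpp4-type cells, with 15 UMIs in other cells. In the library labelled ΔMPC they were *Itga6*, *Itga8* and *Itgb8*. For these members a difference was favoured by their entry.

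Levels were also followed along the score itself, in 7 steps of summed *Pi16*, *Sema3c*, *Anxa3* and *Efemp1*. *Itgb7* had 0.25, 0.33, 0.58, 0.55, 3.24, 9.77 and 14.2 CPM from the lowest to the highest step in the library labelled WT, and 1.48, 1.14, 1.41, 6.94, 26.3, 74.6 and 161 CPM in the library labelled ΔMPC. The latter was above the former at every step, with intervals apart in each except the second, where they were 0.07 to 0.98 and 0.46 to 2.36, and the third, where they were 0.19 to 1.35 and 0.61 to 2.77. *Itga2* and *Itga9* were higher at high scores too, with *Itga9* at 25.5 CPM in the lowest and 60.9 CPM in the highest step of the library labelled WT and at 29.9 and 92.1 CPM in the same steps of the library labelled ΔMPC. *Itga11* was highest at scores of 25 to 50, at 88.4 and 109 CPM, and lower beyond 100, at 51.5 and 65.8 CPM.

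Other members were lower at high scores. *Itga1* had 55.9 CPM in the lowest and 3.68 CPM in the highest step of the library labelled WT, and 23.0 and 0.00 CPM in the same steps of the library labelled ΔMPC. Its 3 lowest steps in the first library lay between 53.7 and 55.9 CPM, whereas those in the second lay between 9.33 and 23.0 CPM. *Cdh11* had 129 and 12.6 CPM at the ends of the score in the first library and 53.9 and 5.48 CPM in the second. *Cdh13* was 16.6 CPM in the lowest step of the first library and 1.05 CPM (2 UMIs) in the highest. In the second it was 31.4, 30.1, 33.1, 18.2, 15.8, 13.8 and 23.0 CPM from the lowest to the highest step. The last of these came from 21 UMIs in 82 cells, with an interval of 14.3 to 35.2.

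**Figure D4:**
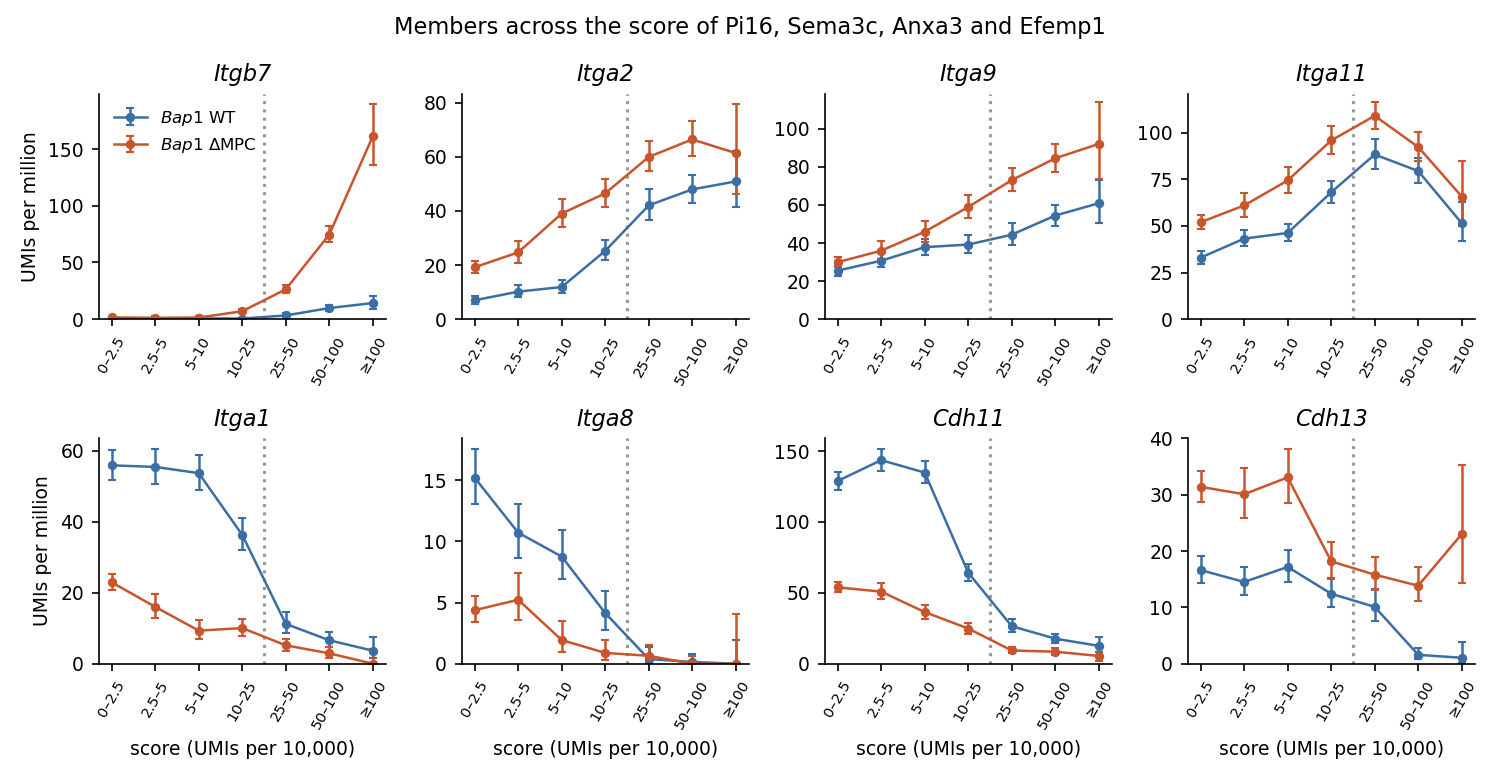
Levels of 8 members, in CPM, in cells grouped by the summed UMIs of *Pi16*, *Sema3c*, *Anxa3* and *Efemp1* per 10000, with exact Poisson 95% intervals. Blue is the library labelled WT, orange the library labelled ΔMPC, and the dotted line the score of 25. *Itgb7*, *Itga2* and *Itga9* are higher and *Itga1*, *Itga8* and *Cdh11* lower at high scores. *Cdh13* is 23.0 CPM (21 UMIs) in the last step of the library labelled ΔMPC, after 13.8 CPM in the step before. In the last step of the library labelled WT it is 1.05 CPM (2 UMIs).

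The other cells were not uniform for these genes. Cells with a UMI of 2 or more of *Hmcn1*, *Meox1* and *Etv4*, called the Hmcn1 set, numbered 647 (15.8% of cells) in the library labelled WT and 153 (3.49%) in the library labelled ΔMPC. The set was chosen with clusters of these cells in view, so its values are a description. *Cdh5* was 14.5-fold (8.66 to 25.2) and 10.7-fold (3.41 to 29.2) higher in the set than in the rest, and *Cdh11* 4.87-fold (4.60 to 5.16) and 3.56-fold (3.05 to 4.13). *Itga6* was 6.64-fold (5.48 to 8.05) and 5.68-fold (3.91 to 8.06) higher, *Itga10* 3.96-fold and 3.21-fold, *Itgb4* 3.31-fold and 5.22-fold, *Itga1* 3.01-fold and 2.43-fold, and *Itga8* 2.51-fold and 2.59-fold. *Cdh26* was 13.4-fold (6.20 to 31.2) higher in the library labelled WT and had no UMI in the set of the other library. In the library labelled WT the set held 73.1% of *Cdh5*, 71.4% of *Cdh26*, 55.4% of *Itga6* and 47.7% of *Cdh11* UMIs.

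Ratios between libraries were therefore also taken with and without the set. Among other cells outside it, *Itga1* had 40.6 and 16.3 CPM and a log2 ratio of -1.32 (-1.47 to -1.17), *Itga8* one of -1.45 (-1.79 to -1.12), *Cdh11* one of -0.89 (-0.99 to -0.79) and *Itga6* one of -0.34 (-0.64 to -0.03). *Cdh5* there had 20 and 15 UMIs and a log2 ratio of -0.61 (-1.68 to 0.43), whose interval includes 0. Without the set, *Itgb7* was the 1 member past 3-fold in other cells, at 3.36 (2.25 to 4.72) from 7 and 82 UMIs, in place of the 6 above, and *Cdh6* was at 1.57, just short. With 7 UMIs in the library labelled WT, *Itgb7* passed the minimum of 20 through the library labelled ΔMPC alone. *Cdh26*, with 9 and 2 UMIs (0.31 and 0.06 CPM), left the count because it was under the minimum of 20 UMIs. Within the set, the ratios were -1.57 (-2.00 to -1.16) for *Itga1*, -1.29 (-2.33 to -0.40) for *Itga8* and -1.33 (-1.54 to -1.11) for *Cdh11*. *Itga1*, *Itga8* and *Cdh11* were thus lower in the library labelled ΔMPC both inside and outside the set, and *Cdh13* was higher in both, with 1.55 (1.12 to 1.98) and 0.86 (0.69 to 1.02).

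**Figure D5:**
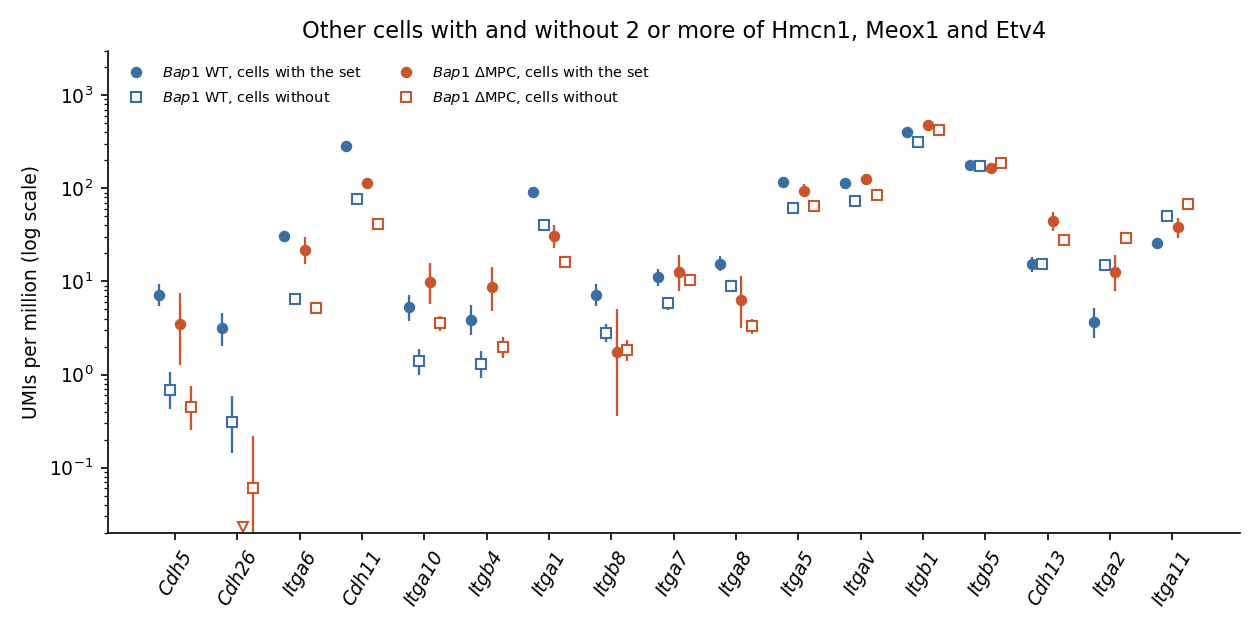
Levels of 17 members in other cells with a UMI of 2 or more of *Hmcn1*, *Meox1* and *Etv4* (filled circles) and without (open squares), in CPM on a log axis with exact Poisson 95% intervals, for the library labelled WT (blue) and the library labelled ΔMPC (orange). The open triangle marks *Cdh26* at 0 UMIs. *Cdh5*, *Itga6* and *Cdh11* are higher inside the set in both libraries, and *Itga2* and *Itga11* are lower.

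Values of members in further sets of cells, defined likewise by 2 or more genes, are given for a few with a large ratio to the rest, chosen after the values were seen. Cells with *Spon1*, *Cldn2*, *Hsd11b2* or *Angpt4* (128 and 729 cells) had 8.48 and 17.9 CPM of *Itga7*, or 1.64-fold (0.88 to 2.80) and 3.05-fold (2.48 to 3.75) the level in the rest. Without them, the log2 ratio of *Itga7* between libraries in other cells was 0.24 (-0.03 to 0.51) instead of 0.60. Cycling cells, taken by *Mki67*, *Top2a*, *Cdk1* and *Birc5* (54 and 119 cells), had 5.14-fold (2.82 to 8.70) and 2.58-fold (1.78 to 3.63) the *Cdh2* level of the rest. *Itga6* was 2.27-fold (1.26 to 3.78) and 3.37-fold (2.09 to 5.197) the level of the rest in them. In the library labelled ΔMPC they also had 18.0-fold (6.47 to 46.9) the *Cdh5* level, from 8 of the 21 *Cdh5* UMIs of that library, and 5.50-fold (3.44 to 8.48) the *Cdh24* level. *Cdh5* had 2 UMIs in the cycling cells of the library labelled WT. Cells with tendon genes *Tnmd*, *Chad* and *Cilp2*, which numbered 141 in that library, had 2.47-fold (2.07 to 2.92) the *Cdh11* level of the rest, and 180 cells with *Wnt4*, *Pcsk2* and *Rtl4* had 0.28-fold (0.17 to 0.43). In the library labelled WT, 329 cells with *Fmo2*, *Angpt2* and *Stc1* had 2.25-fold (1.80 to 2.79) the *Cdh13* level, and 105 cells with *Lgr5*, *Pappa2* and *Kdr* had 2.50-fold (1.94 to 3.18) the *Itga2b* level. The tendon markers summed to 40.4 and 139 CPM, the adipocyte markers to 10.1 and 114 CPM and the cycling markers to 31.0 and 62.1 CPM in other cells, and leaving out the cycling set together with cells holding 2 or more of *Adipoq*, *Plin1*, *Cidec* and *Car3* kept the same 3 members past 3-fold between libraries in Dpp4-type cells and the same 6 in other cells. The part of tendon markers was not tested.

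Intracellular partners were read from lists of genes, beside the shares over all genes given above. Of 50 genes of integrin adhesion machinery, 44 were eligible in Dpp4-type cells and none differed over 3-fold between libraries, where 1.89% of all genes were higher and 1.63% lower. In other cells 1 of 46 did, beside 3.68% higher and 2.18% lower of all genes, *Kank4*, with 142 and 23 UMIs and a log2 ratio of -2.54. *Tln1*, which encodes talin, had 107 and 135 CPM in Dpp4-type and 94.1 and 116 CPM in other cells, and *Fermt2*, which encodes the main kindlin of fibroblasts, had 243 and 285 CPM and 205 and 233 CPM. Both counts are near those shares. Between cell groups, 4 of 45 were higher and 5 lower in Dpp4-type cells of the library labelled WT, and 3 of 45 were higher and 4 lower in those of the other library, beside 3.01% and 7.06% and 2.19% and 7.49% of all genes. *Zyx*, a focal adhesion protein gene, had 307 and 306 CPM in Dpp4-type and 87.0 and 96.8 CPM in other cells, and *Lims2* had 144 and 209 CPM and 46.3 and 63.9 CPM. *Actn1*, which encodes α-actinin, had 2.98 and 5.82 CPM in Dpp4-type and 48.9 and 49.6 CPM in other cells, and *Cav1*, *Tns3* and *Kank4* were also lower in Dpp4-type cells of both libraries.

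Of 28 cadherin partners, 20 were eligible in Dpp4-type cells and none differed over 3-fold between libraries. In other cells 1 of 21 did, the δ-catenin gene *Ctnnd2*, with 18 and 58 UMIs and a log2 ratio of 1.77. These counts are also near the shares over all genes. *Ctnnb1*, which encodes β-catenin, had 171 and 175 CPM in Dpp4-type and 206 and 183 CPM in other cells, and *Ctnna1*, which encodes α-catenin, had 79.1 and 101 CPM and 75.5 and 90.6 CPM.

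Ligands of integrins were compared likewise. Of 59 listed, 18 of 49 eligible were over 3-fold lower and 3 higher in Dpp4-type than in other cells of the library labelled WT, and 16 of 50 were lower and 1 higher in the library labelled ΔMPC. Of all genes, 7.06% and 7.49% were lower and 3.01% and 2.19% higher. *Col4a1*, a basement membrane collagen and ligand of α1β1, had 405 and 585 CPM in Dpp4-type and 1587 and 1852 CPM in other cells. *Lamb3*, a laminin chain of epithelial basement membranes, had 9.14 and 9.82 CPM in Dpp4-type and 1.38 and 1.44 CPM in other cells. *Fn1*, which encodes fibronectin, had 4868 and 3414 CPM in Dpp4-type and 1702 and 1175 CPM in other cells.

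Between libraries, 5 of 45 ligands in Dpp4-type cells and 4 of 51 in other cells differed over 3-fold. Higher were 3 and 2 of them, beside 1.89% and 3.68% of all genes, and lower were 2 and 2, beside 1.63% and 2.18%, so the count in other cells is near the shares over all genes. *Comp*, a cartilage and tendon matrix gene, was higher in the library labelled ΔMPC in both, with 9 and 150 UMIs in Dpp4-type cells (log2 ratio 3.99) and 28.2 and 188 CPM in other cells (2.74). *Tgfbi*, whose product binds collagen and several integrins, was lower in both, with 176 and 42.5 CPM in Dpp4-type cells (-2.05) and 689 and 105 CPM in other cells (-2.71). *Tnc* and *Npnt* were higher and *Vcam1* lower in Dpp4-type cells, and *Col2a1* was higher and *Frem1* lower in other cells. *Npnt*, a ligand of α8β1, had 1.56 and 4.81 CPM in Dpp4-type cells, where *Itga8* had 3 and 5 UMIs. *Vcam1*, a ligand of α4β1 and α9β1 and one of the proteins the sort selected against, had 18.6 and 4.27 CPM in Dpp4-type and 44.8 and 27.4 CPM in other cells.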

How the data were processed

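FAPs of 2 libraries, 1 for each genotype, were measured by droplet scRNA-Seq with the 10x Genomics 3′ kit v3.1. The authors aligned reads with Cell Ranger 3.1.0 (mm10 per the submitters' processing notes, which also name bcl2fastq 2.20.0 and FastQC 0.11.7). In Seurat 3.2.1 under R 3.6.1 they gated doublets, filtered cells for quality and removed cells rich in markers of other muscle-resident types, at thresholds not given in the sources used here. The deposited values are raw UMI counts per gene and cell, for 8481 cells. Every cell had 1501 to 4998 genes and under 5% mitochondrial UMIs. No further cell was removed and no doublet caller was run. The annotation used in counting is not given in those sources, and gene positions are from GENCODE for GRCm38, the assembly that mm10 names.

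For each group of cells the counts were added up and scaled to a total of 1000000 (CPM). Levels have exact Poisson and ratios exact conditional binomial 95% intervals, which cover counting error only. A ratio was called by size, over 3-fold, the fold of the study's methods, without a test. Genes entered a comparison with 20 or more UMIs in the 2 sums, and 3 counts over the group stood in for a sum of 0. All genes past these limits gave the background. Named genes were all members with 100 or more UMIs or past 3-fold in 1 of the 5 comparisons, with the others given by their UMIs, and of the lists of machinery, partners and ligands those past 3-fold. *Tln1*, *Fermt2*, *Ctnnb1*, *Ctnna1*, *Madcam1*, *Pelo* and *Fn1* were added after their values were seen, and so was the printing of 5 promoters. The members and lists were chosen with earlier results of these data known. Overlapping genes on 1 strand share reads, and the 3′ counts do not tell isoforms.

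The code for the ratios was checked on simulated counts. The 13 alternatives changed the score limit, the scaling (edgeR 4.0.16 under R 4.3.3 gave TMM factors and no test), the minimum of UMIs, the fold, the weight of cells, the depth and the cells kept, and 3 more left out sets of cells and were chosen after seeing the data. Python 3.11.15, numpy 2.4.6, scipy 1.17.1, pandas 2.3.3 and matplotlib 3.10.9 were used. Bulk RNA-Seq, FACS and imaging were not analysed here.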

Additional observations from a re-analysis of the deposited data

Results flagged for a closer look

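*Itgb5*, a partner of αv, had opposite directions between libraries in the 2 groups of cells, each with a counting interval that leaves out 0. The log2 ratio of ΔMPC over WT was -0.28 (-0.35 to -0.20) in Dpp4-type cells, from 3116 and 2688 UMIs, and 0.071 (0.02 to 0.12) in other cells, from 6507 and 6442 UMIs. The difference between the groups was not tested. The opposite direction was lost under another scaling, with -0.35 and -0.04 by TMM factors and -0.34 and -0.03 by median-of-ratios factors, so that both values were then below 0.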

How the results depend on the processing

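No paired analysis was possible because the genotypes have a single library apiece, with no replicate to pair or to leave out, and nothing was tested. Of 77 counts of members past 3-fold that were recomputed, 66 stayed within 1.5 times the reported count. Of 483 ratios of members past 3-fold, 452 stayed within their counting interval, 31 moved further and 0 turned direction. Settings that changed only the minimum of UMIs or the fold could not move a ratio, so their ratios are among the 452. Members that fell under the minimum in a setting are not among the 483. In Dpp4-type cells the count between libraries of 3 became 1 (*Itgb7*) with a score limit of 15 and 6 with over 2-fold. In other cells the count of 6 became 3 with 100 or more UMIs, 10 with over 2-fold and 1 without the Hmcn1 set. Between cell groups of the library labelled ΔMPC, 7 became 12 with over 2-fold. Over all cells 5 became 3 with 100 or more UMIs, 10 with over 2-fold, 3 with thinned cells, 1 without the Hmcn1 set and 3 without cells holding *Krt7* or *Plet1*. Fewer genes entered with 100 or more UMIs, with thinned cells and without the Hmcn1 set, where *Cdh26* fell under the minimum of 20, and apart from this the cause was not tested. TMM and median-of-ratios factors kept the count of members and its split by direction in all 5 comparisons. The share of higher calls among all genes went from 53.6% to 47.7% in Dpp4-type and from 62.8% to 55.7% in other cells with TMM factors. In the 16 other settings *Itgb7* stayed past 3-fold between libraries, although those of the minimum and the fold could not move its ratio. Its log2 ratios were 2.38 to 3.102 in Dpp4-type and 1.70 to 3.36 in other cells. In other cells at the main setting it passed the minimum of 20 UMIs through the library labelled ΔMPC alone. *Itga1* and *Itga8* lay so near 3-fold in other cells, at -1.71 to -1.32 and -1.74 to -1.45, that settings moved them to either side of it. With 1 library per genotype, counting intervals understate the error of every difference between genotypes.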
